A study of Oncorhynchus kisutch with 82 samples.

Results

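The 150 probes described here were measured in gills of juvenile coho salmon (Oncorhynchus kisutch). Each had a median log ratio in ocean summer above or below its medians in river smolts and ocean fall fish. They were chosen from their measured values among 43236 probes. Eligible were the 20368 probes (47.1%) with a value on 60% or more of the river smolt, ocean summer and ocean fall arrays of each year, 2008 and 2009, counting only arrays whose log ratios had an SD of at most 1.3. The peak score was the lower of the 2 summer medians minus the highest of the 4 smolt and fall medians. The trough score was the lowest of those 4 medians minus the higher summer median. A peak score above 0 was found for 1191 probes and a trough score above 0 for 1444, and the 75 highest of each were taken. All differences of summer from smolt or fall on these arrays were therefore used in the choice and are given as description, without a test.

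The study followed gill transcription across life stages, with 1 fish on each of 82 two-colour arrays and a pool of gill RNA as the second channel of each. By season the labels give 27 smolts in rivers and, at sea, 4 spring, 22 summer, 27 fall and 2 winter fish. The 15 smolts of 2008 came from the Chilliwack river and the 12 of 2009 from the Chehalis (8) and Salmon (4) rivers, so river and year cannot be told apart in smolts. Summer fish were caught in the north, mid and south Strait of Georgia, and the fall fish too except for 1 from the west coast of Vancouver Island. The shares differed: on arrays with an SD of at most 1.3, 8 summer fish were from the north, 4 from the mid and 5 from the south Strait. Of the fall fish on such arrays, 2 were from the north, 13 from the mid and 10 from the south Strait. The spring fish were all wild fish of 2009 from the south Strait of Georgia. The winter fish were both male hatchery fish of 2009 from the west coast of Vancouver Island with Puget Sound as their stock region. The labelled stock region was Chilliwack_R for all 15 smolts of 2008 and Fraser for the 12 of 2009. It was Fraser for 21 summer fish and S_Main for 1. Of the fall fish, 18 were Fraser, 7 Chilliwack_R (6 of them in 2008) and 1 S_Main, with none given for 1, and of the spring fish 2 were Fraser, 1 Chilliwack_R and 1 S_Main. Stock and the shares of the capture areas therefore differed between the seasons compared. Both hatchery and wild fish were among the smolts, summer fish and fall fish of each year. In the smolts of 2009 the Chehalis fish were all hatchery and the Salmon river fish all wild, so river and origin coincide there.

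The gill is where a fish takes up oxygen and exchanges ions with the water. Salmon gills take up salt in rivers and secrete it at sea, and smolting prepares the tissue for that change while the fish is still in fresh water. Gill tissue holds salt-transporting ionocytes, covering epithelial cells, blood cells and immune cells, and in whole tissue fewer cells of a type and less RNA per cell cannot be told apart. No gene is given for any probe in the files, so the probes are named by their array IDs, no function is given for any of them, and markers of these cell types could not be checked. A value is the deposited log ratio of the 2 channels, taken as log2, and "higher" means a higher deposited log ratio, since the direction of the ratio is not settled.

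Between 12606 and 31972 probes had a value on an array, and the SD of all log ratios on an array ran between 0.636 and 1.88. The 14 arrays with an SD above 1.3, which the choice left out, belonged to 7 smolts (2008), 5 summer fish (2009) and 2 fall fish, 1 from each year. The choice used the arrays of 20 smolts (8 of 2008 and 12 of 2009), 17 summer fish (7 and 10) and 25 fall fish (14 and 11). The spring and winter arrays all had an SD below 1.

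Over the 75 peak probes, the median level was -0.23 in smolts, 0.42 in spring fish, 0.53 in summer fish, 0.0079 in fall fish and 0.33 in winter fish. Over the 75 trough probes, it was 0.24 in smolts, -0.56 in spring fish, -0.62 in summer fish, -0.012 in fall fish and -0.48 in winter fish. The median difference of summer from smolt was 0.76 for peak probes (range 0.28 to 3.64) and -0.73 for trough probes (range -5.82 to -0.37). Summer differed from fall by a median of 0.50 for peak probes (range 0.29 to 1.19) and -0.54 for trough probes (range -4.12 to -0.35). By the choice, summer was past fall in every member, and fall lay between summer and smolt for most of them. The fall median was above the smolt median in 66 of 75 peak probes and below it in 56 of 75 trough probes. The group nearest to summer was the fall of 2008 for 45 peak and 47 trough probes. The matching shares of all eligible probes were not counted, so these counts are description only.

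Peak scores were small, between 0.27 and 0.67 with a median of 0.33, and trough scores reached further, between 0.31 and 1.59 with a median of 0.37. The limit of 75 fell in a dense stretch of scores. On the peak side C207R105 and C066R068 were the last taken, with scores of 0.266 and 0.265, and C065R097 and C119R032 were the first left out, with 0.263 and 0.262. On the trough side the last taken were C151R055 and C174R077, with 0.313 and 0.312, and the first left out were C132R062 and C042R034, with 0.311 and 0.310.

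In single fish the seasons overlapped for nearly all of these probes. The whole summer range lay above the whole smolt range in 1 peak probe, C169R127, where 0.0295% of eligible probes did so. It lay below the smolt range in 6 trough probes, C071R121, C034R137, C104R049, C126R068, C081R086 and C249R098, where 0.128% of eligible probes did so. The summer range was clear of the fall range in 0 peak and 0 trough probes, and in 0% of eligible probes in either direction.

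The highest peak score belonged to C037R114, with 0.67. Its log ratio ran between -1.04 and 0.96 with a median of 0.17 in 20 smolts, between -0.04 and 1.57 with a median of 0.95 in 17 summer fish, and between -0.70 and 2.22 with a median of 0.08 in 25 fall fish. Summer fish were mostly high, but 1 fall fish lay above them all. The spring median was 0.42 and the winter median 0.24, both nearer to smolt and fall than to summer.

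C023R125, the second peak probe, had a median of -1.05 in smolts (range -2.94 to 1.18), 0.34 in summer fish (range -0.71 to 1.94) and -0.47 in fall fish (range -1.78 to 2.46). In 4 spring fish it lay between -0.13 and 0.46 and in the 2 winter fish at 0.17 and 0.97, on the summer side of the smolt and fall medians. C148R129, the third, stands apart in winter. Its median was -1.66 in smolts, -1.31 in spring fish, -0.82 in summer fish, -2.01 in fall fish and -2.87 in winter fish, so that both winter fish, at -3.00 and -2.73, were below the median of every other season. With all 76 smolt, summer and fall arrays, whatever their SD, its score turned to -0.50.

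C153R120 had the largest difference of summer from smolt among the peak probes. It ran between -5.01 and -1.10 with a median of -3.82 in 20 smolts, between -1.17 and 1.45 with a median of -0.18 in 17 summer fish, and between -4.26 and 1.00 with a median of -0.99 in 25 fall fish. Most of its difference was between river and sea, since spring (median -0.93), fall and winter fish (median -0.41) all had medians well above the smolt median. C169R127 was the probe with no overlap of summer and smolt: its lowest summer value was -1.71 and its highest smolt value -1.82. Fall fish covered the whole of its smolt and summer ranges except the highest summer fish, with values between -5.33 and -0.78. With quantile normalization its score was -0.0082.

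C173R153 and C054R078 were split in fall. C173R153 had a median of -0.50 in the fall of 2009 and 1.06 in the fall of 2008, with 1.65 and 1.62 in the summers of 2009 and 2008. C054R078 had a median of -2.45 in the fall of 2009 and 0.62 in the fall of 2008, with 1.09 and 1.07 in the summers of 2009 and 2008. In spring and winter fish the medians were 1.38 and 1.95 for C173R153 and 1.20 and 1.79 for C054R078. Both winter medians, and the spring median of C054R078, were thus above the summer medians of the same probe. Of the remaining high scores, C108R130 had medians of -0.25 in smolts, 0.57 in summer fish and -0.03 in fall fish. C068R154 had medians of -0.58, 0.15 and -0.40 in the same order of seasons, and C030R160 of 0.06, 0.68 and 0.07. The summer difference of these 3 was below 1 on either side. With all 76 smolt, summer and fall arrays the score turned to -0.20 for C173R153 and -1.18 for C054R078.

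Among trough probes, C265R117 had by far the highest score, 1.59, and on the arrays that the choice used its values fell on both sides of a gap. Its log ratio ran between -3.45 and 1.88 with a median of -1.91 in 18 smolts, between -4.94 and 1.77 with a median of -3.61 in 15 summer fish, and between -5.76 and 2.13 with a median of 0.51 in 22 fall fish. High and low fish occurred in all 3 seasons, in different shares: 10 of 18 smolts, 3 of 4 spring fish, 10 of 15 summer fish, 9 of 22 fall fish and the 1 winter fish with a value lay below -1. No summer fish on these arrays lay between -2.86 and -0.20, but all 4 summer fish with a value on the arrays left out did, at -1.94, -0.92, -0.77 and -0.47. The limit of -1 was chosen after these values were seen.

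C071R121 had the largest difference between summer and smolt of all 150 probes. It ran between -2.94 and 2.95 with a median of 0.95 in 20 smolts, between -6.40 and -3.03 with a median of -4.87 in 16 summer fish, and between -5.36 and -1.20 with a median of -3.76 in 24 fall fish. The spring fish lay between -5.15 and -0.72 and the winter fish at -5.44 and -3.65, so every group caught at sea was low. C034R137 had medians of 1.83 in smolts, 0.45 in 3 spring fish, -1.59 in summer fish and -0.70 in fall fish, and no winter value. C006R085 had medians of 1.36 in smolts, -0.87 in spring fish, -1.04 in summer fish, -0.27 in fall fish and 0.57 in winter fish. C104R049 had 1.26, 0.05, -0.33, 0.46 and 0.80 in the same seasons. In these last 2 probes the winter median was above those of spring, summer and fall.

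C154R027 and C244R104 had fall medians between those of smolts and summer fish. C154R027 ran between -1.05 and 0.69 in smolts, between -2.64 and -0.82 in summer fish and between -1.76 and 0.33 in fall fish, with medians of -0.22, -1.93 and -1.02. C244R104 had medians of -1.95 in smolts, -3.98 in summer fish and -3.24 in fall fish. The other high trough scores were those of C027R047 (medians -0.70, -2.57 and -1.33), C080R059 (0.17, -0.81 and -0.01) and C077R023 (-1.63, -2.82 and -2.07). On arrays with an SD of at most 1 the score of C027R047 turned to -0.19. For C077R023 the summer values ran between -4.74 and -0.41 and the fall values between -4.75 and 0.09, so the groups covered nearly the same range.

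Spring and winter fish took no part in the choice. The spring median lay above all 4 smolt and fall medians in 69 of 75 peak probes, where 20.9% of eligible probes did so, and below all 4 in 63 of 75 trough probes, where 24.8% did. The winter median lay above all 4 in 55 of 75 peak probes, against 23.6% of eligible probes, and below all 4 in 48 of the 68 trough probes with a winter value, against 37.6%. The smolt and fall medians in these counts had been used by the choice, so they carry no test. The spring median was also past the nearer of the summer medians in 45 of 75 peak and 34 of 75 trough probes. The winter median was past it in 30 of 75 and 29 of 68. The share of eligible probes past that median was not counted, so these counts are description only.

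The median over the 75 peak probes was 0.29, 0.51, 0.53 and 0.53 in the 4 spring fish and 0.34 in each of the 2 winter fish. Over the 75 trough probes it was -0.79, -0.66, -0.50 and -0.47 in the spring fish and -0.51 and -0.09 in the winter fish. Across the arrays that the choice used, the peak median ran between -1.02 and 0.07 around -0.35 in smolts, between -0.06 and 0.72 around 0.46 in summer fish and between -0.81 and 0.23 around 0.08 in fall fish. The trough median ran between -0.35 and 0.59 around 0.26 in smolts, between -1.03 and -0.14 around -0.65 in summer fish and between -0.51 and 0.52 around -0.09 in fall fish. All spring and winter fish lay within the summer range for the peak probes, and 5 of these 6 did for the trough probes, the exception being the winter fish at -0.09.

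Between winter and spring fish, a comparison the choice did not use, 0 of 125 members with enough values passed an adjusted p below 0.05, where 7 of 18834 probes did (0.0372%; limma, two-sided, Benjamini-Hochberg over all probes tested). The fitted differences, winter minus spring, ran between -1.81 and 1.02 for peak probes (median -0.10) and between -1.85 and 2.08 for trough probes (median 0.28), with a median standard error of 0.49 and 0.43. At an unadjusted p below 0.05 stood 6 of 73 peak and 11 of 52 trough probes, where 808 of all probes tested (4.29%) did. Fitted on these 6 arrays alone, 4 members were called, 2 peak probes lower and 2 trough probes higher in winter, where 129 of all probes were (0.685%). Season, origin, area and stock region coincide in these 6 fish and cannot be told apart. Both winter fish were male, and the sex of the spring fish was labelled unknown.

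The 14 arrays with an SD above 1.3 offered the same measure in fish that the choice left out. On them the summer pattern was not seen as a whole. Over the peak probes the median level was -0.72 in 7 smolts of 2008, -0.98 in 5 summer fish of 2009 and -1.12 in 2 fall fish. Over the trough probes it was 0.05, 0.30 and 0.57 in the same seasons. In single fish, the peak median ran between -1.49 and -0.85 in the 5 summer fish and between -1.27 and -0.36 in the 7 smolts, which overlap.

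Summer minus smolt was tested on these 12 arrays with limma. Of 13461 probes with enough values, 5547 (41.2%) passed an adjusted p below 0.05, 1878 higher (14%) and 3669 lower (27.3%) in summer. Of the 99 members with enough values, 44 passed. Among 46 peak probes, 6 were higher and 19 lower in summer fish. Among 53 trough probes, 9 were higher and 10 lower. On the values as deposited, the share of members called was near that of all probes, and more peak probes were called against the direction of their choice than along it. The median fitted difference was -0.81 for peak probes, 0.09 for trough probes and -0.28 for all probes tested. These values moved with the scaling of the arrays. With quantile normalization 24 of the 99 members were called, where 33.8% of all probes were, and 4 peak probes were higher and 6 lower in summer. The median difference was then -0.14 for peak probes and -0.07 for all probes. With each array divided by its SD, 33 members were called, where 37.2% of all probes were, with 5 peak probes higher and 11 lower. The median difference was then -0.39 for peak probes and -0.15 for all probes. On these arrays season coincides with year, river and area: the smolts were Chilliwack fish of 2008 and the summer fish were caught in the mid Strait of Georgia in 2009.

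The largest called differences among members on these arrays were the following. C025R120, a trough probe, had log ratios between -6.09 and -0.81 with a median of -4.57 in the 5 summer fish and between 0.38 and 0.95 with a median of 0.56 in the 7 smolts, a difference of -4.47 ± 0.66 (SE; limma adjusted p = 8.5e-05). C074R026, also a trough probe, had a median of -5.20 in the summer fish and -0.08 in the smolts, a difference of -4.40 ± 0.67 (adjusted p = 0.000111). Neither overlapped between these smolts and summer fish. Of the fall fish left out, fish 3020 lay within the summer range of both probes, at -1.95 and -3.48. Fish 1012 was above it, at 0.90 and 0.44. On the arrays that the choice used, the same 2 probes had summer medians of -0.40 and -0.63 and no summer value below -1.12.

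In the other direction, C122R032, a peak probe, had log ratios between 2.56 and 3.42 in the 5 summer fish and between -0.97 and 2.13 in the 7 smolts, a difference of 2.71 ± 0.51 (limma adjusted p = 0.000616). C153R120 had -1.16 to 1.64 in the summer fish and -4.11 to -0.59 in the smolts, a difference of 2.41 ± 0.56 (adjusted p = 0.00271). For these 2 probes, as for C025R120 and C074R026, summer against smolt ran in the direction of the choice on the arrays left out. Against fall it did not for C153R120 in every fish, since 1 of the 2 fall fish left out was at 0.90, above the summer median of 0.56. Of the other probes with the 10 highest scores on each side, C169R127 was also called against smolt in its own direction, at 0.93 ± 0.33 (adjusted p = 0.032), as were the trough probes C265R117, at -3.58 ± 0.72 (adjusted p = 0.0011), and C071R121, at -1.86 ± 0.54 (adjusted p = 0.0122). The peak probes C030R160 (-2.27 ± 0.59, adjusted p = 0.00568), C148R129 (-1.86 ± 0.57, adjusted p = 0.0146) and C173R153 (-1.51 ± 0.36, adjusted p = 0.004) were called against it. On the arrays left out the summer and smolt ranges of C169R127 and C071R121 overlapped, unlike on the arrays that the choice used. Smolt fish 4 was at -0.87 for C169R127, above summer fish 2921 at -1.13. Smolt fish 5 was at -1.99 for C071R121, below summer fish 2800 at -1.21. Both fall fish left out lay within the summer range of C169R127 (-1.21 to -0.60), at -1.20 and -1.02. For C071R121, fall fish 1012 lay within the summer range, at -2.85, and fish 3020 above it, at -1.04. Both fall fish lay below the summer range of C122R032, at 1.13 and 1.90. For C265R117 they were above it, at 1.73 and 2.37.

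Among the arrays that were used, an SD above 1 was found on 2 of 20 smolt arrays, 0 of 17 summer arrays and 8 of 25 fall arrays. In the fall of 2009, the peak median ran between -0.81 and -0.48 in the 5 fish whose array had an SD above 1 and between 0.01 and 0.22 in the other 6. The trough median ran between 0.17 and 0.52 in those 5 and between -0.22 and 0.14 in the other 6. In the fall of 2008 the split was not complete, and summer had no used array with an SD above 1. Of the 3 fall fish of 2008 with an array SD above 1, fish 836 had a peak median of -0.63, but fish 796 and 797, at 0.15 and -0.03, lay within the range of the other 11 fish. Of the 2 such smolts, fish 1439 of 2009 had a peak median of -0.87, below the other 11 of that year (-0.51 to 0.07). Fish 1 of 2008, at -0.02, was above the other 7 (-1.02 to -0.27). In the summer of 2009 the peak median ran between -1.49 and -0.85 on the 5 arrays left out and between -0.02 and 0.66 on the 10 used. In the smolts of 2008 it ran between -1.27 and -0.36 on the 7 left out and between -1.02 and -0.02 on the 8 used, which overlap. With only arrays of an SD of at most 1, the median summer minus fall difference was 0.28 for peak probes and -0.37 for trough probes, against 0.51 and -0.48 on all arrays used (limma fit with year, given as description). With the array SD as a covariate these were 0.32 and -0.44, and with all arrays 0.33 and -0.41. The differences from smolt were 0.74 and -0.69 on all arrays used. They were 0.73 and -0.67 on arrays of an SD of at most 1, and 0.69 and -0.66 with the array SD as a covariate. With all arrays they were smaller, at 0.60 and -0.50.

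Place on the array went with membership too, when the C and R numbers of an ID are read as column and row. With the rows cut into 5 equal bands, the counts from the lowest to the highest band were 1, 13, 17, 17 and 27 for peak probes and 24, 14, 15, 16 and 6 for trough probes. The bands held 3886 to 4177 eligible probes each. Of these, 3.32% in the lowest and 8.18% in the highest band had a peak score above 0. For the trough score the shares were 10.3% and 4.76%. Over the other eligible probes, the median summer difference from smolt and fall ran the same way, between -0.04 in the lowest and 0.02 in the highest band. With each array centred within these bands, a setting added after the data were seen, the choice kept 112 members. No members touched each other on the array. With slide as a fixed block, the median summer differences were 0.88 from smolt and 0.49 from fall for peak probes. They were -0.81 and -0.52 for trough probes. Without the block they were 0.74 and 0.51 for peak and -0.69 and -0.48 for trough probes. The choice used these differences on the same arrays, so they are description only. The row bands were not in this fit.

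Members varied only weakly together within a season and year. After the median of each season and year was removed, the median correlation over 62 arrays was 0.11 among 43 peak probes, 0.14 among 38 trough probes and -0.09 between the kinds, against 0.02 among all 11159 probes with a value on every array. These arrays share a pool and differ in SD, and on the 52 arrays with an SD of at most 1 the values were 0.07, 0.12, -0.07 and 0.02. Of 3240 pairs of members, 7 reached a correlation of 0.8. The share of such pairs among all probes was not counted, so this count is description only.

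The closest pair was C263R031 and C068R013, with r = 0.911. Both were trough probes with fall above smolt. C263R031 had medians of -0.02 in smolts, -0.96 in spring fish, -0.62 in summer fish, 0.57 in fall fish and 1.03 in winter fish. C068R013 had -0.05, -0.90, -0.65, 0.33 and 0.66 in the same seasons. The arrays left out did not show this summer trough against smolt. There C263R031 ran between 0.28 and 0.87 in summer fish and between -0.94 and 0.75 in smolts with a value. C068R013 ran between -0.36 and 0.38 in summer fish and between -0.86 and 0.69 in smolts. The fall fish left out, 1012 and 3020, were at 0.13 and 0.34 for C263R031 and at 0.15 and -0.67 for C068R013. The probes were singled out after their values were seen.

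The trough probes C031R027, C081R086 and C126R068 formed a trio, with r = 0.896, 0.879 and 0.876 between them. Their medians in smolts were 0.77, 0.98 and 0.86, in summer fish -2.41, -2.41 and -2.53, and in fall fish -1.85, -1.94 and -1.98. The winter medians, -2.47, -2.55 and -2.68, were as low as those of summer. In spring, fish 2134 was low, at -3.08, -2.44 and -3.10. The other spring fish lay above the fall medians, at -1.84 to -1.32, -1.74 to -1.29 and -1.61 to -1.58. On the arrays left out, the trio had summer medians of -4.64, -4.18 and -4.89 in 5 fish and smolt medians of -0.94, -0.53 and -1.04 in 7 fish. The limma differences there were -3.37 ± 0.53, -3.32 ± 0.43 and -3.73 ± 0.43 (adjusted p = 0.000129, 2.8e-05 and 8.6e-06), in the direction of the choice against smolt. In that test 41.2% of all probes were called. Of the 2 fall fish left out, fish 3020 was at -4.22, -4.07 and -4.63, within the summer range of each probe. Fish 1012 was above that range, at -2.56, -2.29 and -1.93. The trio was singled out after its values were seen.

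Peak probes were joined by 3 such pairs. C173R153 went with C255R154 (r = 0.835) and C266R078 (r = 0.810), and C082R137 with C011R085 (r = 0.820). C255R154 had medians of -0.91 in smolts, 0.83 in spring fish, 0.64 in summer fish, 0.35 in fall fish and 1.47 in winter fish. C082R137 had -1.52, 0.37, 0.37, -0.48 and 1.24. On the arrays left out, C082R137 ran between -6.99 and -5.04 in summer fish and between -4.65 and -1.32 in smolts. This was against its direction in the choice (-3.12 ± 0.50, limma adjusted p = 0.000175), as it was for C011R085 (-2.02 ± 0.45, adjusted p = 0.00201). C266R078 also ran against its direction there, between -3.49 and -2.24 in summer fish and between -2.15 and -0.78 in smolts with a value. C255R154 ran between -2.81 and -0.38 in summer fish and between -1.92 and 1.13 in smolts with a value, which overlap.

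Origin was tested in summer and fall fish on arrays with an SD of at most 1.3, with season by year in the fit. Of the 150 members 0 passed an adjusted p below 0.05, as did 0 of 22238 probes (0%; 417 at an unadjusted p below 0.05). In summer the peak median over members ran between -0.06 and 0.53 around 0.41 in 7 hatchery fish and between 0.28 and 0.72 around 0.47 in 10 wild fish. The trough median ran between -0.90 and -0.14 around -0.55 in the hatchery fish and between -1.03 and -0.22 around -0.67 in the wild fish. The groups overlapped, and the fitted differences, hatchery minus wild, had a median of -0.01 for peak and 0.03 for trough probes with a median standard error of 0.18 and 0.17.

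Whether origin went with a different difference in summer than in fall was tested as an interaction. It was called for 0 of 138 members and 0 of 19824 probes (0%; 432 at an unadjusted p below 0.05). The median interaction was -0.22 for peak and 0.16 for trough probes, against -0.0038 over all probes tested, with a median standard error of 0.37 and 0.34 per probe. The choice used the medians of these same arrays, with 10 wild and 7 hatchery fish in summer. It can therefore favour these signs by itself, and the medians are description only. Scored in hatchery fish alone, 25 of 67 peak and 36 of 63 trough probes had a score above 0, where 4.44% and 4.93% of eligible probes did. Scored in wild fish alone, 59 of 71 and 60 of 73 did, where 5.53% and 6.48% of eligible probes did. These scores use the arrays of the choice and are description. The hatchery median for the summer of 2008 rests on 2 fish, and the wild one on 5. For the smolts of 2008 they rest on 3 and 5 fish. In the smolts of 2009 the 8 hatchery fish were from the Chehalis and the 4 wild fish from the Salmon river. Origin and river cannot be told apart there.

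Sex gave 0 calls among 150 members and 0 among 22717 probes (0%; 801 at an unadjusted p below 0.05). In summer the peak median over members ran between 0.28 and 0.72 in 8 females and between -0.02 and 0.66 in 8 males, which overlap. Fork length within the summer gave 0 calls among 150 members and 0 among 21714 probes (0%; 993 at an unadjusted p below 0.05), with slopes between -0.22 and 0.17 per cm for peak probes and between -0.24 and 0.12 per cm for trough probes. With slide as a fixed block, 1 trough probe was called lower with length, among 8 calls in all (0.0411%).

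Summer fish were also compared by capture area. The peak median over members ran between 0.28 and 0.66 around 0.49 in 8 fish of the north Strait of Georgia and between -0.06 and 0.41 around 0.13 in 4 fish of the mid Strait. It lay between 0.28 and 0.72 around 0.51 in 5 fish of the south Strait. The trough median ran around -0.69 in the north, -0.20 in the mid and -0.66 in the south Strait. The north and mid fish overlapped in both.

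North minus mid, tested with limma, was positive in 53 of 68 peak probes (median 0.32) and negative in 54 of 64 trough probes (median -0.35), against a median of -0.03 over all probes. The choice used the summer medians of these same 17 arrays, 8 of them north, 5 south and 4 mid. It can therefore favour these signs by itself, so the signs, medians and shares of members here are description only. None of these 132 members passed an adjusted p below 0.05, and neither did any of 18560 probes (0%); the lowest adjusted p among members was 0.158. With slide as a fixed block, 1 peak probe was called higher and 1 trough probe lower in the north, where 145 of 17842 probes were called (0.813%). At an unadjusted p below 0.05 stood 14 peak and 16 trough probes (20.6% and 25%), where 14.7% of all probes did. When the arrays above an SD of 1.3 were added, all 5 of them from the mid Strait, calls covered 55% of 18594 probes, with 25.9% of them higher and 29.2% lower in the north. Of 134 members 84 were called, with 45 peak probes higher and 1 lower, and 3 trough probes higher and 35 lower. All 8 north arrays had been used in choosing the probes as high or low in summer and the 5 added arrays had not, so that the choice itself favours these directions and the counts support nothing. Within the mid Strait, the peak median over members was 0.13 in the 4 fish on arrays that the choice used and -1.21 in the 5 fish on the added arrays. Without the added arrays 0 of 18560 probes were called. What set these 5 arrays apart was not tested.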

How the data were processed

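Per the labels, gill RNA was amplified, each fish labelled with Alexa 555 and the pool of gill RNA with Alexa 647 on every array. The authors deposited 1 processed log ratio per spot, which is handled as a score because the sources used here do not give its scanner, normalization, log base or direction; the authors deposited the same values, taken as log2, in the series table, which lacks 17574 values of 1 array. Array medians lay between -0.15 and 0.17, the lowest correlation between arrays was -0.250, and 45.6% of values were empty. None was filled in, and 60 control spots were left out.

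Seasons, years, origin, sex, area and slide (31 slides) came from the labels. Each fish is 1 replicate. The members, lists and tests were chosen with earlier results of these data known. Probes were fitted with limma 3.58.1 in R 4.3.3 (lmFit, eBayes, two-sided), called at a Benjamini-Hochberg adjusted p below 0.05 over all probes with values on 60% of the arrays of each group and at least 2. Scripts were tested on simulated data. Named are the 10 highest scores per side, the 2 probes on each side of the limit and the 2 largest called differences per direction and test; others are marked. Alternatives covered scaling, filters, slide, array position, covariates, the SD of arrays and single fish left out. The number of arrays limits the precision.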

Additional observations from a re-analysis of the deposited data

Results flagged for a closer look

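In groups of 4 to 10 fish, 196 groups of values (the peak and trough medians over members and 32 named probes) were searched for a fish far from the others, and 14 had one. Chance gives about 1 in 20. None of these was followed by a test.

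Of the 8 smolts of 2008 with an array SD of at most 1.3, fish 1 stood apart 3 times: its trough median was -0.35, C153R120 was at -1.10 and C006R085 at -0.18, where the nearest of the others were at 0.25, -3.45 and 1.43. Its array had an SD of 1.19, the highest of this group, and the part of that in these values was not tested. Of the 10 summer fish of 2009, fish 2786 stood apart 4 times, at 1.84 for C263R031 and 1.72 for C068R013, the pair with the closest correlation, at -1.53 for C031R027 and at -0.65 for C122R032. Fish 2014 of the same group was at 1.28 for C074R026, with the next at -0.19.

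Among the 4 spring fish, fish 2133 had the lowest peak median, 0.29, and C265R117 at 0.50, the only spring fish on the high side of the gap. Fish 2134 was at -0.26 for C148R129 and at -3.10 for C126R068, and fish 2247 at -2.36 for C169R127. On the arrays with an SD above 1.3, summer fish 2800 was at 0.92 for C108R130, with the next of the 4 at -0.36.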

How the results depend on the processing

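Of the 150 members, the choice kept 62 with all 76 smolt, summer and fall arrays, 96 with each array divided by its SD, 97 with quantile normalization, 68 with means for medians, 26 in hatchery fish alone, 43 in wild fish alone and, added after the data were seen, 81 on arrays with an SD of at most 1. It kept 112 to 144 under the other settings. Calls on the arrays left out were 31 to 47 members without single fish (13 to 21 peak probes lower) and 24 with quantile normalization; peak probes lower numbered 6 with that and 11 with arrays divided by their SD. Slide as a random block could not be fitted there, as no slide held more than 1 of these arrays. Winter minus spring gave 0 members without single fish and 4 on the 6 arrays alone (129 probes in all, against 7); without 1 of the 2 winter fish, 15 probes were called. Fork length gave 1 member with slide as a fixed block. North minus mid gave 84 members with all arrays and 2 with slide as a fixed block (145 probes). The median summer minus fall difference of peak probes, 0.51, was 0.28 on arrays with an SD of at most 1, 0.32 with the array SD as a covariate and 0.33 with all arrays, and that of C077R023 turned to 0.0196 on arrays with an SD of at most 1. On the arrays left out, the median difference of peak probes, -0.81, was -0.14 with quantile normalization, -0.39 with arrays divided by their SD and -0.37 with no filter on missing values. North minus mid, 0.32 for peak and -0.35 for trough probes, was 1.08 and -0.70 with all arrays. With single fish kept, the peak median of winter minus spring, -0.10, ran between -0.30 and 0.0037, and that of the interaction, -0.22, between -0.37 and -0.03. The peak medians of origin, sex and fork length, near 0, changed sign under some settings. Of the 20 highest scores, 3 turned below 0 with all 76 smolt, summer and fall arrays (C148R129, C173R153 and C054R078). In hatchery fish alone 7 turned below 0 (-1.41 to -0.09) and 10 stayed above it. There C054R078, C080R059 and C034R137 had too few values for a score. In wild fish alone 2 turned below 0 (C148R129 at -0.64 and C054R078 at -1.15). So did C169R127 with quantile normalization and C027R047 on arrays with an SD of at most 1. The cause of these changes was not tested. No paired analysis was possible because replicate numbers only follow the order of samples. No count of spring or winter levels moved by over 1.5 times. Origin, sex and the interaction gave 0 member calls under each alternative run.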
